A study of Homo sapiens with 6 samples.

Results

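The 9 genes PHGDH, PSAT1, PSPH, SHMT1, SHMT2, MTHFD1, MTHFD2, MTHFD1L and MAT2A encode the enzymes that make serine from glucose, move its side-chain carbon onto folate and feed methyl groups into S-adenosylmethionine. They were taken by gene symbol from a count table of 23228 genes, and all 9 were found there and passed the filter on low counts, which left 14504 tested genes. The counts come from mRNA-seq of U2OS cells, an established human osteosarcoma line, harvested 48 hours after lipid transfection with siRNA against ALKBH5 (knockdown, 3 libraries) or with scrambled control siRNA (3 libraries). The labels give neither group any other alteration. ALKBH5 is a demethylase that removes N6-methyladenosine (m6A) from RNA, and the design asks how transcript levels differ once it is depleted. No rescue and no other siRNA was analysed here, so loss of ALKBH5 and off-target action of its siRNA cannot be told apart. Nothing in the labels says that the replicates came from separate cultures, so each p-value reflects how these libraries scatter, and that scatter may be technical.

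Serine is made from a glycolytic intermediate in a chain of reactions catalysed by PHGDH, PSAT1 and PSPH. The serine hydroxymethyltransferases SHMT1 (cytosol) and SHMT2 (mitochondria) then split serine into glycine and a carbon unit carried by tetrahydrofolate. The MTHFD enzymes convert that unit further in the same compartments. The unit is used for purines, thymidylate and the remethylation of homocysteine to methionine, which MAT2A converts to S-adenosylmethionine, the methyl donor of RNA, DNA and protein methyltransferases, those that write m6A included. In proliferating cancer cells the mitochondrial arm usually supplies most of these carbon units, and several of its genes are known targets of the stress-responsive transcription factor ATF4.

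ALKBH5 was lower in every knockdown library, at 19.4, 16.2 and 15.7 CPM (counts scaled to the library's effective size, so that libraries can be compared) in cells given ALKBH5 siRNA, against 138, 148 and 143 CPM in cells given scrambled siRNA (log2 fold change -3.06, SE 0.10, adjusted p = 1.6e-09 by edgeR's quasi-likelihood test). An exact 2-sided permutation test of these CPM values gave p = 0.1, the smallest that 3 libraries against 3 allow. Reads in genes numbered 19748583 to 19919797 in the knockdown and 18817181 to 23410007 in the scrambled libraries. Uniquely placed reads outside genes made up 17.9% ± 0.66 in the knockdown and 15.3% ± 0.23 in the scrambled libraries (SD, n = 3 each), and the part of this difference in the other results was not tested. The mesenchymal and bone list summed to between 4564 and 5342 CPM in the knockdown and 5383 and 5610 CPM in the scrambled libraries, with TWIST1, SP7 and BGLAP under 1 CPM in all 6. Over all tested genes 30.8% were lower and 30.8% higher at an adjusted p under 0.05, the background of each marker count here. Of the 9 genes in the mesenchymal and bone list 6 were tested, 3 of them lower and 2 higher. The lower ones were VIM (1478 CPM in knockdown and 1936 CPM in scrambled libraries), SPARC (1428 CPM in knockdown and 2030 CPM in scrambled libraries) and ALPL (2.49 CPM in knockdown and 3.97 CPM in scrambled libraries). The higher ones were RUNX2 (42.0 CPM in knockdown and 25.3 CPM in scrambled libraries) and COL1A1 (2017 CPM in knockdown and 1526 CPM in scrambled libraries). The RUNX2 ranges overlapped. COL1A2 did not pass the edgeR test (1.1 CPM in knockdown and 4.4 CPM in scrambled libraries, adjusted p = 0.083). With single libraries left out, adjusted p in the edgeR test reached 0.056 for RUNX2 and 0.092 for ALPL. Epithelial markers summed to 75.5 to 83.6 CPM in knockdown against 48.9 to 52.5 CPM in scrambled libraries. Of 7 genes 5 were tested, 2 higher and 2 lower, with KRT19 under 1 CPM. CLDN4 averaged 71.8 CPM in knockdown and 34.2 CPM in scrambled libraries and CDH1 was also higher, while KRT14 averaged 0.36 CPM in knockdown and 8.34 CPM in scrambled libraries and CLDN7 was also lower. Leukocyte markers summed to 5.58 to 6.61 CPM in knockdown against 7.85 to 9.61 CPM in scrambled libraries. Of 6 genes 2 were tested, 0 higher and 2 lower, with CD3E at 0 reads. Endothelial markers summed to 2.36 to 3.58 CPM in knockdown against 6.85 to 9.61 CPM in scrambled libraries. Of 5 genes 4 were tested, 0 higher and 2 lower, with PECAM1 under 1 CPM. The part of these marker genes in the results on the 9 enzymes was not tested.

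Among the 9 enzymes, 6 were lower and 1 was higher in knockdown cells at an adjusted p under 0.05, and 2 did not pass the test. The background is wide: of all tested genes 61.6% were called, with 30.8% higher and 30.8% lower. The CPM ranges of the groups did not overlap for 7 of the 9 enzymes, against 67.4% of all tested genes. Calls among the 9 enzymes leaned to lower, with 6 lower and 1 higher, while those over all tested genes split evenly. No test of the 9 enzymes as a list was run, so neither count sets them apart from other genes. SHMT1 was 3.68-fold lower in knockdown cells, MTHFD1 was 1.52-fold lower, and the remaining called changes were under 1.3-fold. The median log2 fold change of the 9 enzymes was -0.24 against 0.0098 over all tested genes, and their median absolute change was 0.33 against 0.46.

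**Figure D1:**
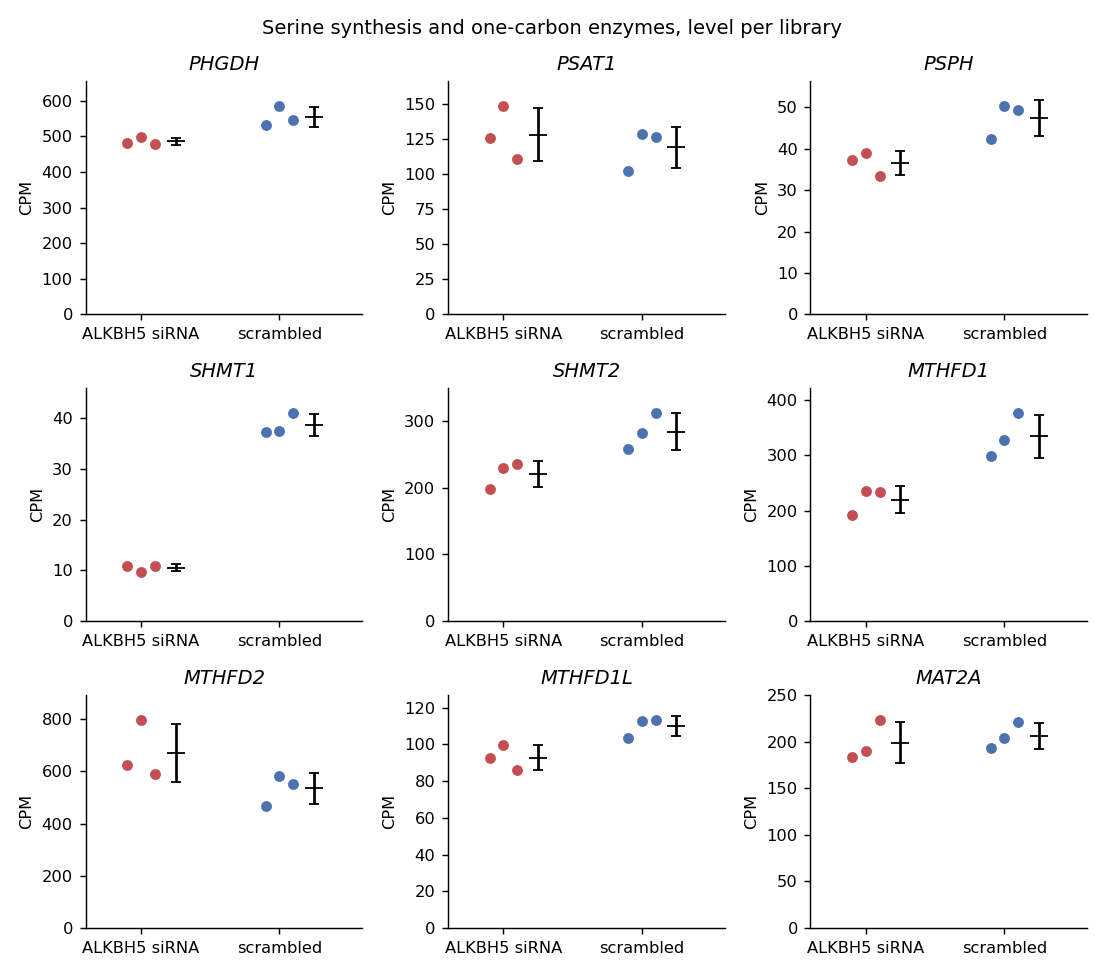
Level of each enzyme in CPM (y axis, from 0) in the 3 libraries given ALKBH5 siRNA (left, red points) and the 3 given scrambled siRNA (right, blue points), with the mean and SD as black marks. The groups are widely separated for SHMT1 (knockdown libraries at 9.68 to 10.9 CPM, scrambled libraries at 37.3 to 41.0 CPM) and overlap for PSAT1 and MAT2A.

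The entry enzyme of serine synthesis was slightly lower after knockdown. PHGDH, which oxidises phosphoglycerate, had 480, 498 and 480 CPM in knockdown libraries and 531, 585 and 547 CPM in scrambled libraries. Every knockdown library was below every scrambled one, with a gap smaller than the spread among the scrambled libraries (log2 fold change -0.19, SE 0.07, 95% interval -0.35 to -0.03, adjusted p = 0.035). Leaving out knockdown replicate 1, knockdown replicate 3 or scrambled replicate 2 ended the call, at adjusted p values of 0.087, 0.083 and 0.121.

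PSAT1, the aminotransferase that follows, had 126, 149 and 111 CPM in knockdown libraries and 103, 129 and 127 CPM in scrambled libraries. The ranges overlapped and no change passed the test (log2 fold change 0.10, SE 0.12, 95% interval -0.16 to 0.37, adjusted p = 0.47). PSPH, the phosphatase that releases serine, had 37.4, 39.1 and 33.4 CPM in knockdown libraries and 42.4, 50.3 and 49.5 CPM in scrambled libraries. All knockdown libraries were below all scrambled ones (log2 fold change -0.37, SE 0.10, adjusted p = 0.0081). In bulk RNA a lower level in each cell and fewer cells that hold the transcript cannot be told apart, here and for the other genes. GENCODE 29 names 4 pseudogenes of PSAT1 and 1 of PSPH, and reads shared with such copies make these counts uncertain.

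SHMT1, the cytosolic serine hydroxymethyltransferase, had by far the largest change of the 9. It had 212, 184 and 213 reads in knockdown libraries and 897, 780 and 784 reads in scrambled libraries. On the CPM scale these were 10.9, 9.68 and 10.9 CPM in knockdown libraries, against 37.3, 37.5 and 41.0 CPM in scrambled libraries. The groups were far apart compared with the spread within either, with a 3.68-fold lower level in knockdown cells (log2 fold change -1.88, SE 0.11, adjusted p = 4.2e-08). Only 2.38% of all tested genes had a lower log2 fold change. SMCR8 overlaps SHMT1 on the opposite strand, and its levels were 107 ± 12.5 CPM in knockdown and 118 ± 1.89 CPM in scrambled cells (SD, n = 3 each; log2 fold change -0.14, adjusted p = 0.21).

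SHMT2, the mitochondrial isozyme, had 198, 230 and 235 CPM in knockdown libraries and 258, 283 and 313 CPM in scrambled libraries. The ranges were separate and SHMT2 fell (log2 fold change -0.36, SE 0.09, adjusted p = 0.0047). MTHFD1, the trifunctional cytosolic enzyme that interconverts methylene-, methenyl- and formyltetrahydrofolate, had 192, 235 and 233 CPM in knockdown libraries and 299.5, 327 and 377 CPM in scrambled libraries. Knockdown libraries were all lower, at 1.52-fold below the scrambled level (log2 fold change -0.60, SE 0.10, adjusted p = 3.1e-04). With edgeR's glmTreat, which asks for more than a 1.5-fold change, SHMT1 was the 1 enzyme called, and MTHFD1 was not (adjusted p = 0.52).

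MTHFD2, the mitochondrial dehydrogenase and cyclohydrolase that is high in many tumours, was the 1 member called higher. It had 626, 798 and 589 CPM in knockdown libraries and 467.5, 583 and 553 CPM in scrambled libraries, so the highest scrambled library was just below the lowest knockdown library (log2 fold change 0.33, SE 0.12, adjusted p = 0.036). This call did not hold without knockdown replicate 2 (adjusted p = 0.129), scrambled replicate 1 (adjusted p = 0.121) or scrambled replicate 3 (adjusted p = 0.059), nor with library totals as the only scaling (adjusted p = 0.072). MTHFD2 has 7 named pseudogenes in GENCODE 29, and SHMT1 and MTHFD1 have 1 each. SLC4A5, which overlaps MTHFD2 on the opposite strand, had 5.65 ± 0.62 CPM in knockdown and 3.57 ± 0.59 CPM in scrambled cells (SD, n = 3 each).

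MTHFD1L, the mitochondrial synthetase that releases formate for export to the cytosol, had 92.7, 99.9 and 85.9 CPM in knockdown libraries and 104, 113 and 114 CPM in scrambled libraries. Its ranges were separate by a small margin (log2 fold change -0.24, SE 0.08, adjusted p = 0.023). The call was lost without knockdown replicate 1 (adjusted p = 0.052), knockdown replicate 3 (adjusted p = 0.083), scrambled replicate 2 (adjusted p = 0.071) or scrambled replicate 3 (adjusted p = 0.056).

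MAT2A, the catalytic subunit of the methionine adenosyltransferase found outside the liver, had 183, 190 and 224 CPM in knockdown libraries and 193, 204 and 221 CPM in scrambled libraries. The ranges overlapped and no change passed the test (log2 fold change -0.048, SE 0.09, 95% interval -0.25 to 0.15, adjusted p = 0.66). MAT2A mRNA is a known substrate of the m6A methyltransferase METTL16, which acts on hairpins in its tail and ties its splicing and stability to S-adenosylmethionine. METTL16 was at 39.9 ± 5.85 CPM in knockdown and 41.0 ± 2.53 CPM in scrambled cells (SD, n = 3 each; log2 fold change -0.039, adjusted p = 0.78). Gene counts do not separate spliced from intron-retaining MAT2A transcripts. MAT2B, the regulatory subunit that pairs with MAT2A, fell to 47.0 ± 3.67 CPM in knockdown cells, against 111 ± 9.32 CPM in scrambled cells (log2 fold change -1.25, adjusted p = 4.2e-07).

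**Figure D2:**
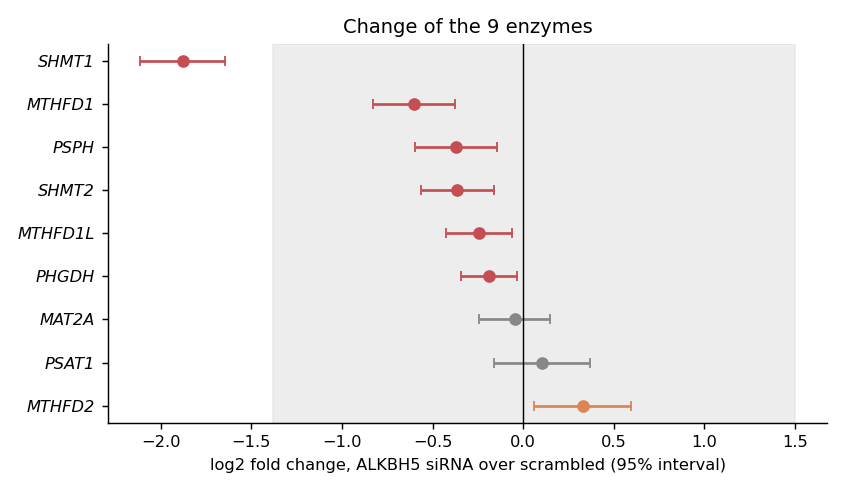
Log2 fold change of each enzyme (x axis, ALKBH5 siRNA over scrambled, with its 95% interval), where red points are called lower, the orange point is called higher and grey points did not pass the test. The shaded band spans the 5th to 95th percentile of all tested genes, and SHMT1 at -1.88 is the 1 enzyme outside it.

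To set levels of different genes side by side, CPM was divided by the length in kilobases of the GENCODE 29 principal transcript, which gives RPKM. In knockdown cells the order was PHGDH (188 ± 3.92 RPKM), MTHFD2 (151 ± 25.1), SHMT2 (87.1 ± 7.87), MAT2A (70.5 ± 7.68), MTHFD1 (70.1 ± 7.64), PSAT1 (58.7 ± 8.79), MTHFD1L (25.8 ± 1.95), PSPH (16.8 ± 1.34) and SHMT1 (4.25 ± 0.28; SD, n = 3). In scrambled cells it was PHGDH (214 ± 10.8 RPKM), MTHFD2 (120 ± 13.4), SHMT2 (112 ± 10.8), MTHFD1 (107 ± 12.5), MAT2A (73.0 ± 4.93), PSAT1 (54.6 ± 6.72), MTHFD1L (30.5 ± 1.55), PSPH (21.8 ± 1.99) and SHMT1 (15.7 ± 0.85). The ranges of SHMT2 and MAT2A, of MAT2A and MTHFD1, and of MTHFD1 and PSAT1 overlapped in knockdown cells. In scrambled cells those of MTHFD2 and SHMT2, and of SHMT2 and MTHFD1, overlapped. PHGDH was highest and SHMT1 lowest in both groups. The order is a description that rests on the transcript lengths chosen, such as 4456 bases for MTHFD2 and 2464 bases for SHMT1.

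Mitochondrial enzymes took more reads relative to their cytosolic counterparts in knockdown libraries. These ratios within a library do not depend on scaling between libraries. SHMT2 and MTHFD1L were themselves lower, at log2 fold changes of -0.36 and -0.24, but fell less than SHMT1 (-1.88) and MTHFD1 (-0.60). MTHFD2 alone was called higher (0.33). The ratios of MTHFD2 and of MTHFD1L share MTHFD1, so they are not independent. The log2 ratio of SHMT2 to SHMT1 was 4.19, 4.56 and 4.43 in knockdown libraries and 2.79, 2.92 and 2.93 in scrambled libraries, a difference of 1.51 (SE 0.12) or 2.86-fold. Per length, SHMT2 stood at 20.5 ± 2.66 times SHMT1 in knockdown cells and 7.14 ± 0.38 times in scrambled cells (SD, n = 3 each). The log2 ratio of MTHFD2 to MTHFD1 was 1.70, 1.77 and 1.34 in knockdown libraries and 0.64, 0.83 and 0.55 in scrambled libraries, a difference of 0.93 (SE 0.16). That of MTHFD1L to MTHFD1 was higher by 0.36 (SE 0.13), and its ranges in the groups did not overlap.

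Within serine synthesis the shifts were smaller than those of SHMT2 to SHMT1 and of MTHFD2 to MTHFD1. The log2 ratio of PSPH to PHGDH averaged -3.73 ± 0.10 in knockdown and -3.55 ± 0.089 in scrambled libraries (SD, n = 3 each), a difference of -0.18. That of PSAT1 to PHGDH averaged -1.93 ± 0.19 in knockdown and -2.22 ± 0.14 in scrambled libraries, and the ranges overlapped. Its difference of 0.29 (SE 0.13) was near the 0.36 (SE 0.13) of MTHFD1L to MTHFD1. Exact 2-sided permutation tests of the 5 ratios gave p = 0.1, the smallest that 3 libraries against 3 allow, for each but PSAT1 to PHGDH (p = 0.2). After Benjamini-Hochberg adjustment over the 5 ratios these were 0.125 and 0.2, so none passed a threshold of 0.05, which this design cannot reach.

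**Figure D3:**
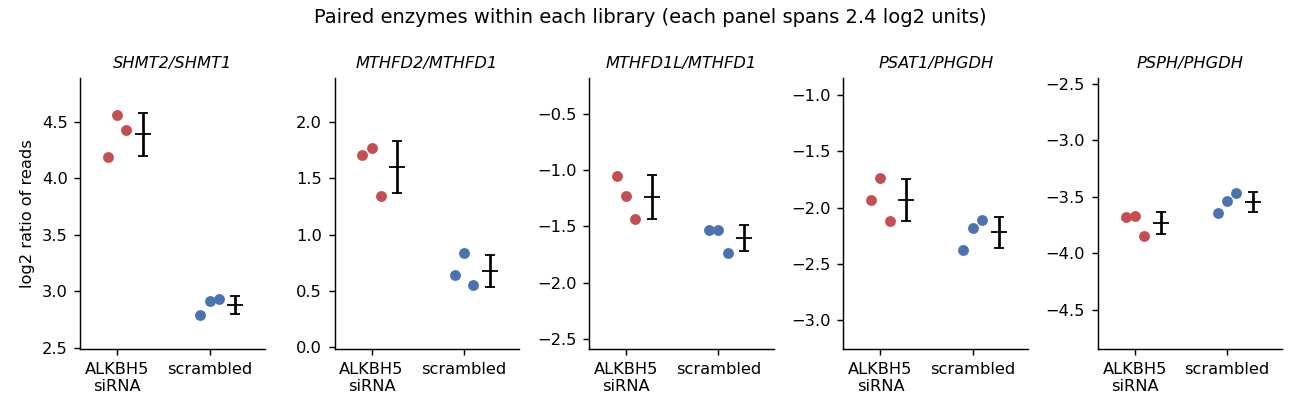
Log2 ratio of reads of paired enzymes within each library (y axis) in knockdown (left, red points) and scrambled (right, blue points) libraries, with mean and SD as black marks. Every panel spans the same range of log2 units, and SHMT2 to SHMT1 shifts most, at 4.19 to 4.56 in knockdown against 2.79 to 2.93 in scrambled libraries.

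The upstream sequences of the cytosolic genes SHMT1 and MTHFD1, and of MTHFD2 and MTHFD1L, the mitochondrial counterparts of MTHFD1, are shown because these 4 genes moved unequally. Each is the 250 bases before the RefSeq transcription start on GRCh38.p14, read 5′ to 3′ on the gene's strand: SHMT1 at chr17:18363551-18363800 (minus strand), MTHFD1 at chr14:64388103-64388352 (plus strand), MTHFD2 at chr2:74198365-74198614 (plus strand) and MTHFD1L at chr6:150866236-150866485 (plus strand), the first of its 4 listed starts. Capitals mark matches on either strand to CCAAT (the box bound by NF-Y), CACGTG (the E-box, which MYC and its relatives bind) and TGATGNAAN (the core of the amino acid response element that ATF4 binds).
SHMT1: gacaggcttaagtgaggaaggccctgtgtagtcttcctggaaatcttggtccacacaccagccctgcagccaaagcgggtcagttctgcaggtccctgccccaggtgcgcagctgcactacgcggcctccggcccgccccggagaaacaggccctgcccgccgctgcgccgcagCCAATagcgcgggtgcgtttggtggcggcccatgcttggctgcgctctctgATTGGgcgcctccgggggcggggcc
MTHFD1: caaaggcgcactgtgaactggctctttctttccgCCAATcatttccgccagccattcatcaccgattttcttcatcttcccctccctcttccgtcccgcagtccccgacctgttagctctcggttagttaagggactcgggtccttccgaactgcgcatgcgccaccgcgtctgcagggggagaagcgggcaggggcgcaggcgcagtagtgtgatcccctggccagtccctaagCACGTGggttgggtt
MTHFD2: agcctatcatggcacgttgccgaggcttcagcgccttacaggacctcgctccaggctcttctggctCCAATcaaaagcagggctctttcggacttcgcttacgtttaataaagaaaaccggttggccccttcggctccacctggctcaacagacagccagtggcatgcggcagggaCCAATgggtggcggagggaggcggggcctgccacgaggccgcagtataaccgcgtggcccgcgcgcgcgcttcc
MTHFD1L: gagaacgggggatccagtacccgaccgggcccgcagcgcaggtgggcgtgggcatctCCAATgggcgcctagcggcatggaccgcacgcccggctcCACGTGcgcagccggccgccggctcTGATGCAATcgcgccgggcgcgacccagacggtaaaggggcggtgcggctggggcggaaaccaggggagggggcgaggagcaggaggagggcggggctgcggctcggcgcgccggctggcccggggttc

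Among the members RefSeq windows were used for 7, and PSPH and SHMT2 were not scanned. CCAAT was in at least 1 window of all 7, and in 32.0% of all 35116 windows of this length. The shares over all windows are per window, while the members are counted per gene. MTHFD1L, with 4 windows, some of them overlapping, had more places to match. SHMT1 held it 76 and 25 bases before the start, the second on the opposite strand, and MTHFD2 held it 184 and 74 bases before. CACGTG was in the windows of MTHFD1 (15 bases before the start) and MTHFD1L (154 bases before), against 6.34% of all windows. TGATGNAAN was in windows of MTHFD1L as 1 site shared by overlapping windows, 129 bases before the first listed start, against 3.13% of all windows. No matched stretch overlapped another in the 4 sequences shown. MTHFD1L, with all 3 motifs in the window shown, had a log2 fold change of -0.24, and MTHFD1, with CCAAT and CACGTG, one of -0.60. PHGDH, PSAT1, SHMT1, MTHFD2 and MAT2A held CCAAT as the only motif, at log2 fold changes of -0.19, 0.10, -1.88, 0.33 and -0.048. Of the other MTHFD1L windows, the second held CCAAT alone and the fourth held none of the motifs. Whether the motifs bear on the changes was not tested.

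Other genes of folate handling were followed in lists around the 9 enzymes, 72 genes in all, of which 67 were tested, 15 higher and 25 lower, with a median log2 fold change of -0.13 against 0.0098 over all tested genes. The share called was 59.7%, near the 61.6% of all tested genes, of which 30.8% were higher and 30.8% lower. The counts of each list stand against those same shares, and lists of 5 to 17 tested genes carry no test of their own. Of 8 genes of folate uptake and processing 2 were higher and 4 lower. SLC46A1, the proton-coupled folate transporter, averaged 24.8 CPM in knockdown and 33.2 CPM in scrambled cells (n = 3 each; log2 fold change -0.42, adjusted p = 0.0021). SLC25A32, the mitochondrial folate carrier, fell by 0.53 on the log2 scale (SE 0.11, adjusted p = 0.0015), while GGH, which trims the glutamate tail of folates, rose by 0.42 (SE 0.07, adjusted p = 3.6e-04).

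Among these 67 genes the largest rise was in the mitochondrial form of formyltetrahydrofolate dehydrogenase. ALDH1L2, which oxidises the formyl group to carbon dioxide in mitochondria, had 88.6, 102 and 81.6 CPM in knockdown libraries and 19.2, 25.8 and 19.8 CPM in scrambled libraries, a 4.20-fold higher level (log2 fold change 2.07, SE 0.13, adjusted p = 1.1e-07). The groups were far apart, and 97.9% of tested genes had a lower log2 fold change. Its cytosolic counterpart ALDH1L1 went the other way, at 12.5 ± 0.41 CPM in knockdown and 21.3 ± 0.92 CPM in scrambled cells (SD, n = 3 each; log2 fold change -0.77, adjusted p = 6.4e-05). MTFMT, which formylates the initiator methionyl-tRNA of mitochondria, fell 2.92-fold (adjusted p = 2.5e-06). In this list of 7 interconverting enzymes 2 were higher and 2 lower. The other higher one was MTHFD2L, a mitochondrial paralogue of MTHFD2 (9.29 ± 0.79 CPM in knockdown and 5.08 ± 0.50 CPM in scrambled cells, adjusted p = 4.3e-04), named here after its values were seen.

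Glycine-side genes were split. Of 7 genes 5 were tested, 2 higher and 2 lower, and GLDC and DMGDH stayed under 1 CPM in group means. DLD, the lipoamide dehydrogenase shared with other mitochondrial complexes, rose to 140 ± 3.69 CPM in knockdown cells, against 74.4 ± 9.32 CPM in scrambled cells, and AMT, the aminomethyltransferase of glycine cleavage, rose 2.10-fold (adjusted p = 4.9e-06 and 1.7e-04). SARDH, which oxidises sarcosine, fell by 0.95 on the log2 scale (adjusted p = 0.0013).

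In the list for thymidylate and purine synthesis 5 of 7 genes fell and 0 rose, against 30.8% lower and 30.8% higher among all tested genes, and the median log2 fold change was -0.48. ADSL, which acts at more than one step of the purine path without using folate itself, had 77.0, 81.5 and 73.8 CPM in knockdown libraries and 225, 229 and 255 CPM in scrambled libraries (3.05-fold lower, SE 0.08 on the log2 scale, adjusted p = 2.1e-08). PPAT, the committed enzyme, and ATIC, which takes up the last formyl group, fell by 0.63 and 0.56 on the log2 scale (adjusted p = 3.8e-04 and 2.5e-04). GART and PAICS did not pass the test, at log2 fold changes of -0.013 and -0.038. TYMS, called lower over all libraries at a log2 fold change of -0.27, had an adjusted p of up to 0.133 when single libraries were left out.

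The methionine cycle around MAT2A was mixed, with 3 of 17 tested genes higher and 5 lower among 19 listed. AHCY clears S-adenosylhomocysteine, the product of methyl transfer from S-adenosylmethionine. AHCY fell to 247 ± 14.3 CPM in knockdown cells, against 441 ± 46.6 CPM in scrambled cells (log2 fold change -0.84, SE 0.09, adjusted p = 5.9e-06). APIP of the methionine salvage path fell 1.96-fold (adjusted p = 9.8e-06). All 5 genes of transsulfuration and glutathione synthesis were lower, against 30.8% of all tested genes, with a median log2 fold change of -0.56. GSS, the glutathione synthetase, had 102 ± 7.05 CPM in knockdown and 151 ± 5.71 CPM in scrambled cells (adjusted p = 6.4e-05), and the subunits of glutamate-cysteine ligase, GCLC and GCLM, fell by 0.59 and 0.53 on the log2 scale (adjusted p = 7.0e-04 and 0.0056). CBS, the entry enzyme of transsulfuration, had an adjusted p of up to 0.132 when single libraries were left out.

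Of 11 tested genes for transport and other use of these amino acids 5 were higher and 1 lower. SLC1A4, a neutral amino acid exchanger that carries serine, had 116, 124 and 105 CPM in knockdown libraries and 45.0, 57.9 and 53.2 CPM in scrambled libraries (log2 fold change 1.15, SE 0.11, adjusted p = 1.9e-06). The glycine transporter SLC6A9 was also higher in every knockdown library, at 95.4 ± 7.83 CPM in knockdown and 43.9 ± 6.21 CPM in scrambled cells (adjusted p = 3.4e-06). SDSL, a serine dehydratase-like enzyme, fell 2.14-fold (adjusted p = 7.9e-05).

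Of 7 regulators 1 was higher and 1 lower. ATF4 had 721, 770 and 670 CPM in knockdown libraries and 508, 573 and 537 CPM in scrambled libraries (log2 fold change 0.42, SE 0.08, adjusted p = 6.6e-04). NFE2L2, which encodes the antioxidant regulator NRF2, fell 2.33-fold (log2 fold change -1.22, adjusted p = 3.1e-07). MYC had 97.3, 123 and 139 CPM in knockdown libraries and 67.0, 88.4 and 109 CPM in scrambled libraries. The ranges overlapped and MYC did not pass (log2 fold change 0.44, adjusted p = 0.070), but passed with DESeq2 (adjusted p = 0.011) and limma-voom (adjusted p = 0.032).

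**Figure D4:**
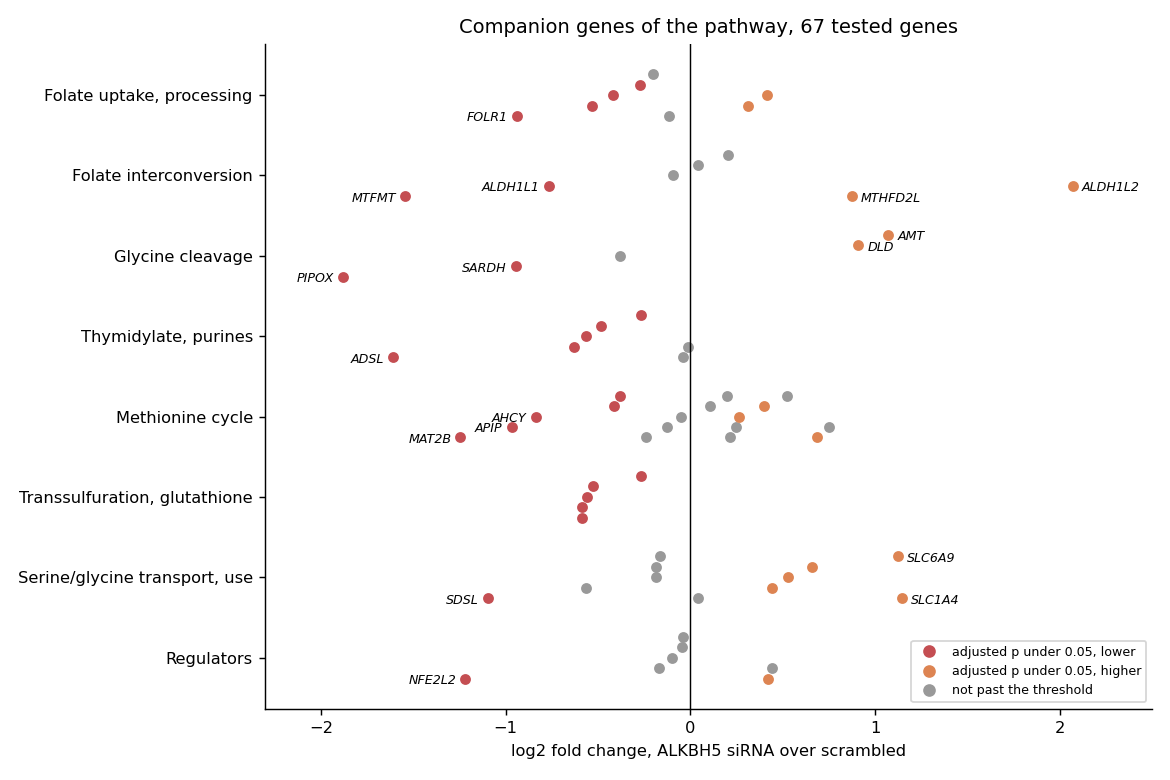
Log2 fold change (x axis, ALKBH5 siRNA over scrambled) of the 67 tested companion genes, 1 point per gene, grouped by list on the y axis; names mark called genes beyond 0.75 in either direction. ALDH1L2 lies farthest to the right at 2.07, and all 5 genes of transsulfuration and glutathione synthesis lie left of 0.

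The genes whose level over the 6 libraries was most like PHGDH, among 9227 genes compared (average log2 CPM of 4 or more), were TRIM44, KAT5 and DNAJB6, with Pearson r of log2 CPM of 0.993, 0.987 and 0.987. Each r includes any difference between the groups, and 1004 genes reached an r of 0.9. Of these 3 genes KAT5 was called lower in the edgeR test (log2 fold change -0.41, adjusted p = 0.0020). TRIM44 and DNAJB6 did not pass (log2 fold changes -0.097 and -0.21, adjusted p = 0.23 and 0.057). For MAT2A the closest were LTBR, ACAT1 and FKBP15 (r of 0.989, 0.985 and 0.979), and 42 genes reached 0.9.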

How the data were processed

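Polyadenylated RNA of 6 libraries was measured by stranded mRNA-seq with single reads of 50 bases, per the labels. The authors deposited raw counts, 1 whole number per gene symbol and library. CASAVA 1.8.2, TopHat2, SAMtools, HTSeq and build hg19 appear in the submitters' processing notes. The sources used here do not give annotation or strand setting, so a gene and an overlapping or antisense gene cannot be told apart. The table and the 6 single files held identical values, and 5 summary entries were left out.

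The test was run in R 4.3.3 with edgeR 4.0.16 (filterByExpr, TMM, robust glmQLFit, glmQLFTest, 2-sided, group as the single term), with Benjamini-Hochberg adjustment over 14504 genes and a threshold of 0.05. SE is the absolute log2 fold change over the root of F. CPM values use TMM factors. Enzyme ratios had 0.5 reads added to each count and were compared by exact permutation. At these factors 19.0 to 24.0 reads make 1 CPM. Same-group libraries differed by more than counting error (chi-square over its degrees of freedom, 6.21 to 17.2).

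Members and lists were chosen with earlier results of these data known. Named genes are the members, ALKBH5, up to 3 called genes per list with the smallest adjusted p and an average log2 CPM of at least 2, ATF4, MYC, METTL16 and the 3 genes most like PHGDH and MAT2A. GART, PAICS, TYMS, CBS, MTHFD2L, SLC19A1, NNMT, SRM, GLDC and DMGDH were named outside this rule, after their values were seen. So were marker genes and genes that overlap or neighbour members. The fit was tested on simulated data. Alternatives were RLE, upper-quartile or no scaling, other low-count filters, DESeq2 1.42.0, limma-voom (3.58.1), no robust moderation, glmTreat at 1.5-fold, a replicate block, 5 reads added for ratios, and each library left out. Promoter sequences are RefSeq's (GRCh38.p14).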

Additional observations from a re-analysis of the deposited data

Results flagged for a closer look

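Reads placed uniquely but outside genes, which enter none of the comparisons, made up 17.9% ± 0.66 of uniquely placed reads in knockdown libraries and 15.3% ± 0.23 in scrambled libraries (SD, n = 3 each). The share was higher in all 3 knockdown libraries than in any scrambled one. Whether it bears on the 9 enzymes was not tested.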

How the results depend on the processing

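ALKBH5, SHMT1, PSPH, SHMT2 and MTHFD1 kept their direction and their call under every setting run, except that glmTreat at 1.5-fold called none of the last 3. Under glmTreat 3601 genes were called (1891 higher, 1710 lower), 1 enzyme (0 higher, 1 lower) and 13 companion genes (5 higher, 8 lower). The enzymes not called there were PHGDH, PSPH, SHMT2, MTHFD1, MTHFD2 and MTHFD1L, at unchanged log2 fold changes of -0.19, -0.37, -0.36, -0.60, 0.33 and -0.24, since the threshold itself is larger. With library totals as the only scaling MTHFD2 was at 0.26 and not called, which left 0 enzymes higher, and the share of calls that were higher was 44.6% against 50.0%. With single libraries left out, log2 fold changes ranged from -0.23 to -0.16 for PHGDH, -0.012 to 0.20 for PSAT1, 0.19 to 0.42 for MTHFD2, -0.30 to -0.19 for MTHFD1L and -0.14 to 0.011 for MAT2A, so the uncalled PSAT1 and MAT2A changed sign, and 0 to 1 enzymes were called higher, 4 to 6 lower. Uncalled METTL16 ranged from -0.15 to 0.064, above 0 without knockdown replicate 1 (0.064) and scrambled replicate 3 (0.0021). The cause of these shifts was not tested. SLC19A1, TYMS, NNMT, SRM and CBS were among the called companion genes that missed the threshold without at least 1 library, and 37 to 41 were called in all. MYC was also called without robust moderation, without knockdown replicate 1 and without scrambled replicate 3.

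The main test did not pair libraries by replicate number. Deviations from the group mean correlated at 0.331, 0.0578 and 0.351 between same-numbered libraries. Between differently numbered libraries they correlated at -0.367 to 0.0768. Of 6 libraries 5 correlated best with their own number, scrambled replicate 2 being the exception. These values do not settle whether the libraries were paired, and the labels do not say. With the replicate block 9760 genes, 7 enzymes and 48 companion genes were called, against 8937, 7 and 40 without it. In that fit MTHFD2 kept its call (adjusted p = 0.0024) and MYC passed (adjusted p = 7.5e-05). SHMT1 rests on 184 to 213 reads per knockdown library, the fewest of the 9.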

Other observations

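SHMT1 and ALKBH5 lie near each other on chromosome 17, with 5 protein-coding genes between them in RefSeq. All 5 were tested, 0 were higher and 1 was lower, against 30.8% higher and 30.8% lower among all tested genes. The lower gene was LLGL1, at 106 ± 9.62 CPM in knockdown and 152 ± 7.79 CPM in scrambled cells (SD, n = 3 each; log2 fold change -0.52, adjusted p = 2.3e-04). The other 4, FLII, SMCR7 (MIEF2), TOP3A and SMCR8, had log2 fold changes of 0.090, -0.27, 0.17 and -0.14 and did not pass the test. These genes were looked at after the values of SHMT1 were known.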
